A study of Rattus norvegicus with 86 samples.

Results

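The genes described here are 63 zinc finger genes of the prelimbic cortex (PL), a medial prefrontal area of the rat, out of 17250 genes with expression values. They were chosen by name: the gene table lists only Ensembl identifiers, and a gene became a member when the study's lists of expression quantitative trait loci (eQTLs) pair its identifier with a name that starts with Zfp, Znf, Zbtb, Zscan, Zkscan or Klf. The study's lists cover more genes and brain regions, but shortened copies of them were used here, and these copies name 3292 of the 17250 genes (19.1%). The members are 55 Zfp genes, 6 Zbtb genes, *Zkscan2* and *Klf16*, and no Znf or Zscan name occurred. The part used holds entries for the infralimbic cortex and for genes whose eQTL was found in only a single region of the brain, so every member has such an entry, and zinc finger genes named elsewhere in the full lists are not among the members. The label of transcription factors rests on the names, with 2 exceptions that the names themselves give: *Zfp773-ps1* is named as a pseudogene, and *Zbtb8os* encodes archease, a cofactor of tRNA ligation whose gene lies on the opposite strand to *Zbtb8*. Chromosome 1 holds 24 of the 63.

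The study measured gene expression in brain regions of Heterogeneous Stock (HS) rats, an outbred population founded from inbred strains, to map genetic variants that go with expression. PL tissue came from both hemispheres of adult rats that were group housed and had received no drug or behavioural treatment, and polyadenylated RNA was sequenced, 1 library per rat. The labels keep 80 rats, 40 males and 40 females, and give each a rat batch. Batch 2 holds 3 females and 11 males, batch 3 holds 13 females and 10 males, batch 4 holds 15 females and 11 males, batch 5 is 1 female, and batch 6 holds 8 females and 8 males. What a rat batch stands for (arrival, dissection or sequencing) is not given in the labels, so anything that went with it cannot be told apart from it. The 6 libraries that the submitters marked as removed are not analysed here.

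Most zinc finger transcription factors carry fingers of the C2H2 type, each a short fold held by a zinc ion through a pair of cysteines and a pair of histidines, and a row of fingers reads a stretch of DNA. Many Zfp genes belong to the KRAB family, in which a KRAB domain recruits the corepressor *Trim28* and, through it, the histone methyltransferase *Setdb1* and heterochromatin proteins. This family is large, evolves quickly and lies in clusters of related genes on the chromosomes. In Zbtb proteins a BTB domain pairs the proteins and binds other corepressors, in Zkscan and Zscan proteins a SCAN domain pairs them, and Klf proteins bind GC-rich and CACCC-like elements.

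The promoters below, from RefSeq on build GRCr8, are those of genes that the results turn on. Each is 300 bases, from 250 bases before to 50 bases after the annotated start, 5′ to 3′ on the gene's strand. The first 3 belong to neighbours on chromosome 1 that varied together between rats. *Zbtb40* is an example of the genes that were higher in batches 4 and 6, and *Zfp628* of those that were lower. A single promoter does not show the elements of its group. Capitals mark matches on either strand to the GC box GGGCGG, the CCAAT box CCAAT, the TATA box TATAAA or the cyclic AMP response element (CRE) TGACGTCA.
Zfp296, chr1:88356403-88356702, plus strand: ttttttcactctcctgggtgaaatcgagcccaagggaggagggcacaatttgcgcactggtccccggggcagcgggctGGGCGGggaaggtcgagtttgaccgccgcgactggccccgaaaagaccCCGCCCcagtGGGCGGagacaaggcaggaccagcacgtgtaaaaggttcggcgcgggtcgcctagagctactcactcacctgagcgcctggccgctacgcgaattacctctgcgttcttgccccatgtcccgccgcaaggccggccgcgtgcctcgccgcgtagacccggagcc
Zfp180, chr1:88780092-88780391, plus strand: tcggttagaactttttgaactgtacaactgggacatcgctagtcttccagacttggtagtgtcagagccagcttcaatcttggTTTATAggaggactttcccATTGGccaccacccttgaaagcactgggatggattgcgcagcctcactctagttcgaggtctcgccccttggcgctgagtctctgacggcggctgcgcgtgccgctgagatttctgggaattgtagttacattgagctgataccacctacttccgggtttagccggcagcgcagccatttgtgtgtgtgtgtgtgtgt
Zfp61, chr1:88985610-88985909, minus strand: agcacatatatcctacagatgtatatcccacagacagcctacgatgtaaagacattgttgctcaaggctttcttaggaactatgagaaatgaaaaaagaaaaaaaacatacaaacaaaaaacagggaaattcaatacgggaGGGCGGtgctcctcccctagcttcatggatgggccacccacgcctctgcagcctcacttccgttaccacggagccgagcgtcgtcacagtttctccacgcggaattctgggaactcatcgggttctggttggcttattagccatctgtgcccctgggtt
Zbtb40, chr5:154567124-154567423, minus strand: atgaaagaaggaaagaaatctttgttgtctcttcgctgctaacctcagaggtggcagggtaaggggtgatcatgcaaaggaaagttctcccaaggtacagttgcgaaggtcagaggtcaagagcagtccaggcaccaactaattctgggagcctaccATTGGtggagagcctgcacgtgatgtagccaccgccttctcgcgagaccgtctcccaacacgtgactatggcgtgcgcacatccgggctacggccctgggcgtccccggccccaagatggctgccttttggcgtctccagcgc
Zfp628, chr1:77949947-77950246, minus strand: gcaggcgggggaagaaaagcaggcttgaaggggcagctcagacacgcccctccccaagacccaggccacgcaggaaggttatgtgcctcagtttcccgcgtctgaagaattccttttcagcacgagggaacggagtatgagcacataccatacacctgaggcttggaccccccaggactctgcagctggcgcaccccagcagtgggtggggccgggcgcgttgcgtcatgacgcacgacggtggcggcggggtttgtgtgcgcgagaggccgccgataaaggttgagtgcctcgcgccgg
No matched element occurred in all 3 neighbours. The *Zfp296* window held 3 GC boxes, that of *Zfp61* held 1, and that of *Zfp180* held none but had a CCAAT box and a TATA box. *Zbtb40* had a CCAAT box, and the *Zfp628* window held none of these letters.

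A single RefSeq promoter of full length was found for 45 members, all on the chromosome that the eQTL lists give. Their median GC content was 58.7%, against 52.7% over 24206 rat promoters of the same length, and they held a median of 18 CpG dinucleotides against 8. The GC box occurred in 20 of them (44.4%, against 35.9% of all promoters), the CCAAT box in 15 (33.3% against 37.8%) and the TATA box in 3 (6.67% against 14.3%). The CRE occurred in 0 of the 45, and in 1.91% of all. None of these motifs contains another, and both strands were searched. Among the members that were higher in batch 4 than in batch 3, 6 of 17 promoters held a GC box (35.3%), and among those that were lower, 6 of 9 did (66.7%). Both groups are small, and these shares are descriptions only.

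Values are log2 of upper-quartile-adjusted read counts plus 1. Depth here means the reads assigned to the genes with expression values, so it is below the number of raw reads. Recovered from the steps between whole adjusted counts, it ranged from 10.2 to 32.2 in units of 1000000 reads. Batches 2, 3, 4 and 6 had means of 17.05 ± 2.37 (SD), 17.6 ± 2.85, 19.97 ± 3.76 and 18.2 ± 1.53 in that unit. Pairs of libraries correlated at r = 0.930 to 0.982 across genes. Of 30 cell type markers, 6 have a name in the shortened lists. Of these, *Olig2* of oligodendrocyte lineage cells was lower in batch 4 than in batch 3 by 0.24 (log2, adjusted p = 0.00979, limma), *P2ry12* of microglia was higher by 0.21 (adjusted p = 0.0165), and *Aldh1l1* (astrocytes), *Itgam* (microglia), *Dcn* (meninges) and *Hbb* (blood) did not pass the test. In batch 6 against batch 2, *Olig2* was lower by 0.37, while *P2ry12* was higher by 0.33 and *Dcn* by 0.39. The part used names no neuronal marker, so the neuronal identity of the tissue was not checked. In bulk tissue, fewer cells of a type and less RNA per cell cannot be told apart.

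Members were expressed in nearly every rat. Of the 63, 62 were above 0 in all 80 rats, against 84.2% of all genes, and 59 had a mean log2 value of at least 5, against 75.5%. *Zfp180* had the highest mean of the members, 11.78 (log2), and *Zfp296* the lowest, 2.75. Counts were not divided by transcript length, so these means do not rank the genes by transcript number. Reads that match several related zinc finger genes equally well were shared out between them by RSEM, so values of close paralogs are uncertain. *Zfp697* had values identical to those of another gene of the table and is uncertain for the same reason.

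Rat batch was the label with the most calls among the members. Over the batches, 45 of the 63 passed limma's moderated F-test at an adjusted p under 0.05 (71.4%), where 59.4% of all genes did. All genes include more low ones than the members do. Among genes with a mean log2 of at least 5, 43 of 59 members passed, and 72.1% of 13025 genes did. The largest batches, 4 and 3, gave 30 members higher in batch 4 (47.6%, against 25.7% of all genes) and 10 lower (15.9%, against 26%). Batches 6 and 2, which share no rat with the first pair, gave 23 higher in batch 6 (36.5%, against 20.6%) and 6 lower (9.52%, against 17.7%). With the filter on the mean, 28 members were higher and 10 lower in batch 4 (30.8% and 32.6% of the 13025 genes). In batch 6, 23 were higher and 6 lower (24.9% and 22.6%). The median difference over the members was 0.11 between batches 4 and 3 and 0.12 between batches 6 and 2 (log2), while over all genes it was 0.00038 and 0.024.

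Both pairs of batches gave many of the same genes. Of the members higher in batch 4, 19 were also higher in batch 6, which is 63.3% of the first list and 82.6% of the second. Over all genes, 4433 were higher in batch 4, 3554 in batch 6 and 2485 in both. As shares of the whole, 30.2% of the members and 14.4% of all genes were higher in both. The 6 that were lower in batch 6 were all among the 10 lower in batch 4. Over all genes, 4488 were lower in batch 4, 3048 in batch 6 and 2237 in both. As shares of the whole, 9.52% of the members and 13% of all genes were lower in both. No member was called in opposite directions, as 0.528% of all genes were. For no member did all rats of batch 4 lie above or below all of batch 3, nor those of batch 6 above or below all of batch 2; of all genes, 0.145% had every batch 6 rat above every batch 2 rat and 0.487% had every one below.

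**Figure D1:**
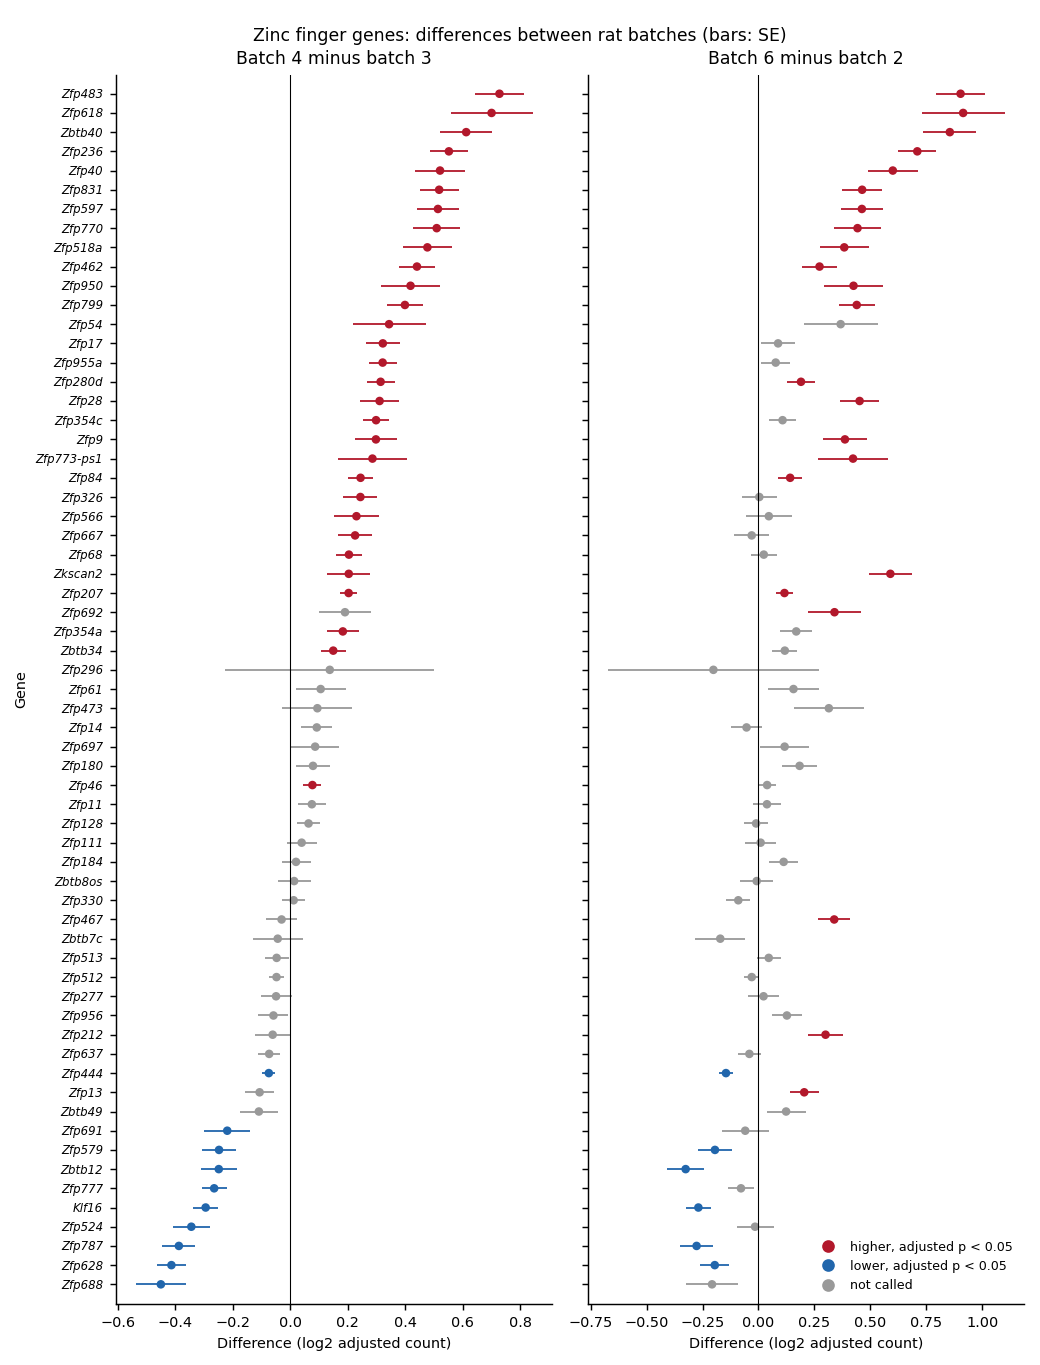
Difference between batches for each of the 63 members (log2 adjusted count, bars 1 SE), batch 4 minus batch 3 on the left and batch 6 minus batch 2 on the right, ordered by the left panel. Red marks the 30 and 23 members that were higher at an adjusted p under 0.05, blue the 10 and 6 that were lower, and grey the rest; differences run from -0.45 (Zfp688) to 0.73 (Zfp483) on the left.

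*Zfp236* (ENSRNOG00000016303), a protein with many fingers, had the smallest p over batches (adjusted p = 8.74e-15, limma). Its lowest, median and highest log2 values were 7.07, 7.41 and 8.08 in batch 2 and 7.26, 7.53 and 8.20 in batch 3, against 7.82, 8.13 and 8.47 in batch 4 and 7.73, 8.15 and 8.47 in batch 6. All 26 rats of batch 4 exceeded the median of batch 3, and 5 exceeded its highest rat. The difference was 0.55 ± 0.065 (SE) between batches 4 and 3 and 0.71 ± 0.085 between batches 6 and 2.

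*Zfp483* (ENSRNOG00000014975), whose human counterpart carries both SCAN and KRAB domains, showed the largest rise of the members from batch 3 to batch 4. Its lowest, median and highest values were 8.59, 9.33 and 9.98 in batch 2 and 8.77, 9.38 and 10.13 in batch 3. They were 9.88, 10.16 and 10.52 in batch 4, with 9.82, 10.22 and 10.39 in batch 6. Only the upper tails of batches 2 and 3 reached the range of batches 4 and 6: 15 of 26 rats of batch 4 lay above every rat of batch 3, and 14 of 16 of batch 6 above every rat of batch 2. The difference was 0.73 ± 0.084, or 1.66-fold, between batches 4 and 3, and 0.90 ± 0.11, or 1.87-fold, between batches 6 and 2 (adjusted p over batches = 9.52e-15).

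*Zbtb40* (ENSRNOG00000022039), a BTB domain protein, was at 6.87, 7.47 and 7.95 in batch 2 and 6.85, 7.38 and 8.25 in batch 3, against 7.29, 8.18 and 8.69 in batch 4 and 7.64, 8.30 and 8.84 in batch 6. In batch 6, 15 of 16 rats lay above every rat of batch 2. The gene was 1.53-fold higher in batch 4 than in batch 3 and 1.81-fold higher in batch 6 than in batch 2 (adjusted p over batches = 4.72e-12). *Zfp831* had medians of 9.13, 9.03, 9.58 and 9.58 in batches 2, 3, 4 and 6, *Zfp597* of 7.81, 7.83, 8.35 and 8.25, *Zfp40* of 8.03, 7.73, 8.36 and 8.55, and *Zfp799* of 6.91, 6.92, 7.29 and 7.38. For these 4 genes the ranges of the batches overlapped. For *Zfp40*, though, most rats of batch 6 lay above the highest rat of batch 2, which was at 8.20. Human ZNF597 is imprinted; nothing is measured here about the parental copies of *Zfp597*.

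**Figure D2:**
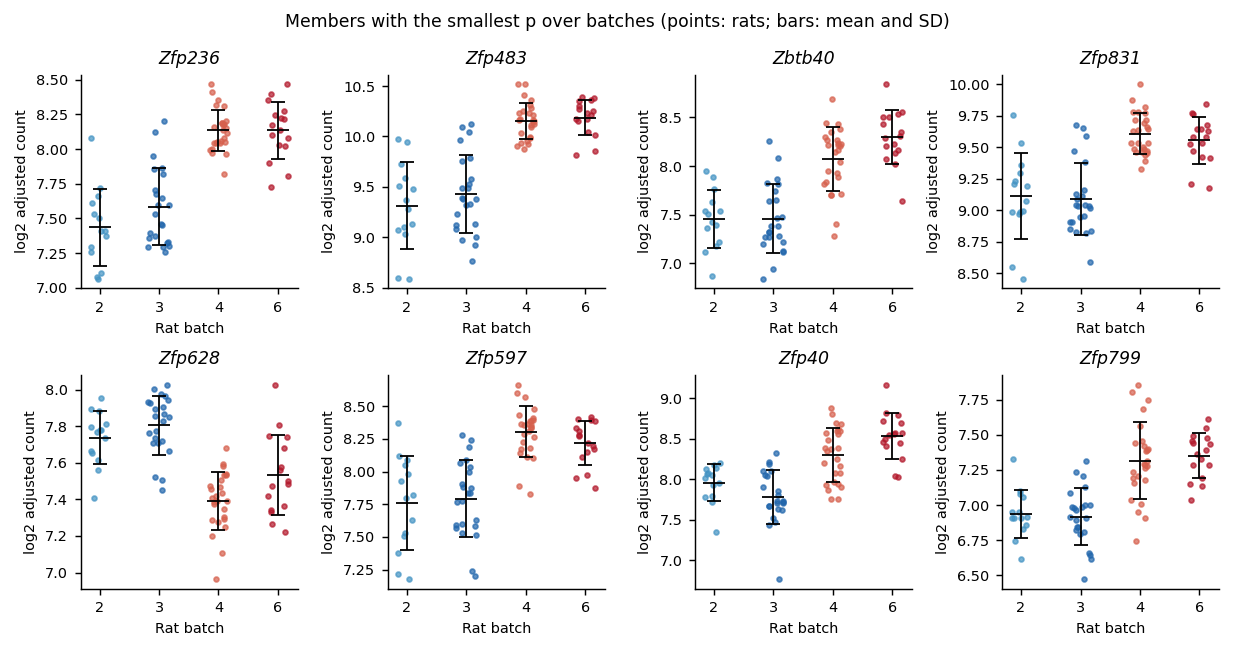
The 8 members with the smallest p over batches, log2 adjusted count by rat batch (points are rats, bars the mean and SD; the rat of batch 5 is not drawn). Batches 4 and 6 lie above batches 2 and 3 for all but Zfp628, which lies below; Zfp483 has medians of 9.33, 9.38, 10.16 and 10.22 from left to right.

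*Zfp628* (ENSRNOG00000038622) was the only one of those 8 that was lower in the later numbered batches. Its values were 7.41, 7.77 and 7.95 in batch 2 and 7.45, 7.85 and 8.03 in batch 3, against 6.97, 7.40 and 7.68 in batch 4 and 7.22, 7.49 and 8.03 in batch 6. None of the 26 rats of batch 4 reached the median of batch 3. It fell by 0.41 ± 0.050 from batch 3 to batch 4 and by 0.20 ± 0.065 from batch 2 to batch 6 (adjusted p over batches = 6.39e-10). The second difference was -0.09 in males alone (adjusted p = 0.483, limma) and -0.39 in females alone (adjusted p = 0.0361), and it missed the threshold after rank transformation (adjusted p = 0.067). The other members lower in both pairs were *Zfp787*, *Klf16*, *Zbtb12*, *Zfp579* and *Zfp444*, with differences of -0.39, -0.29, -0.25, -0.25 and -0.07 between batches 4 and 3. *Zfp688*, *Zfp524*, *Zfp777* and *Zfp691* were lower in batch 4 alone, at -0.45, -0.34, -0.26 and -0.22, and their differences between batches 6 and 2, -0.21, -0.02, -0.08 and -0.06, did not pass. Whether the pairs of batches differ for these genes was not tested.

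*Klf16* (ENSRNOG00000033694), the Krüppel-like member, which was first described as a regulator of dopamine receptor genes, had medians of 11.11, 11.15, 10.79 and 10.85 in batches 2, 3, 4 and 6. No rat of batch 4 reached the batch 3 median, and the differences were -0.29 ± 0.044 and -0.27 ± 0.057. Among the members with a Zbtb name, *Zbtb12* fell in both pairs (-0.25 ± 0.063 and -0.33 ± 0.082). Between batches 4 and 3 its difference was -0.06 in males alone (adjusted p = 0.657, limma) and -0.39 in females alone (adjusted p = 0.000433). *Zbtb34* was higher in batch 4 than in batch 3 by 0.15 ± 0.043, with 22 of 26 rats above the batch 3 median. *Zbtb49* passed over batches (adjusted p = 0.0283) but in neither pair. *Zbtb7c* and *Zbtb8os* did not pass, with adjusted p of 0.376 and 0.897 (limma). *Zkscan2*, whose SCAN domain pairs the protein with its relatives, was higher by 0.20 ± 0.075 in batch 4 than in batch 3 and by 0.59 ± 0.098 in batch 6 than in batch 2, where 13 of 16 rats lay above every rat of batch 2. Between batches 4 and 3 its difference was 0.11 in females alone (adjusted p = 0.45, limma) and 0.33 in males alone (adjusted p = 0.0123).

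Further members are named here for functions known beyond DNA binding. They were picked after their values were seen and do not stand for such genes as a class. *Zfp207*, also called BuGZ, which binds microtubules and the checkpoint protein Bub3, was higher in batch 4 by 0.20 ± 0.029, and 18 of 26 rats lay above every rat of batch 3. *Zfp326*, part of a complex that links RNA polymerase II to splicing, was higher by 0.24 ± 0.059, while its difference between batches 6 and 2 was 0.0036 ± 0.077 and did not pass. *Zfp462*, a chromatin protein with a role in development, was higher by 0.44 ± 0.062 and 0.27 ± 0.080. *Zfp473*, which takes part in processing of histone mRNA, differed by 0.09 ± 0.12 and 0.31 ± 0.16 and passed in neither pair.

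A level outside the family moved with these differences. 5.8S ribosomal RNA, which was picked because it is among the genes with the smallest p over batches, ran from 8.06 to 10.93 (log2) over the rats of batch 2 and from 1.58 to 13.04 over those of batch 3. It ran from 1.58 to 4.81 in batch 4 and to 4.86 in batch 6. All rats of batches 4 and 6 were under 6, none of batch 2 was, and 4 of 23 rats of batch 3 were (7 genes of the table share these values). Those 4 rats of batch 3 had *Zfp483* at 9.96 to 10.13, above the 8.77 to 9.79 of the other 19 rats of that batch. *Zfp236* was at 7.86 to 8.20 in them against 7.26 to 7.86, and *Zfp831* at 9.47 to 9.68 against 8.59 to 9.38. For *Zfp628* (7.45 to 7.86 against 7.51 to 8.03) and *Klf16* (10.76 to 11.09 against 10.92 to 11.42) the ranges overlapped. Of the 63 members, these 3 were the only ones whose values in the 4 rats all lay above those of the other 19 (0.904% of all genes did), and 0 lay all below (0.551%). Among the other leading batch genes the ranges overlapped for *Zbtb40* (7.64 to 8.09 against 6.85 to 8.25), *Zfp597* (8.07 to 8.28 against 7.20 to 8.09), *Zfp40* (7.67 to 8.32 against 6.77 to 8.21) and *Zfp799* (6.98 to 7.31 against 6.48 to 7.13). The 4 rats were set apart by a measured level, and no test was made between them and the others.

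With the 5.8S level as a covariate, an alternative chosen after seeing the data, 13 members passed over batches (15.3% of all genes did), 0 were higher and 0 lower in batch 4 than in batch 3 (0.0058% and 0% of all genes), and 3 were higher and 2 lower in batch 6 than in batch 2 (3.15% and 4.72% of all genes). The difference between batches 4 and 3 was then 0.17 for *Zfp483*, 0.22 for *Zfp236* and -0.02 for *Klf16*. It was -0.27 for *Zfp628* and -0.32 for *Zbtb12*, whose calls were lost (adjusted p = 0.256 and 0.30, limma) although their sizes were not small beside the -0.41 and -0.25 without the covariate. A lost call under this covariate therefore does not show that a difference was gone. Without the 4 rats of batch 3, 29 members were higher and 10 lower in batch 4 (26.9% and 27.5% of all genes), and the difference of *Zfp483* was 0.86. Since 5.8S levels did not overlap between batch 2 and batches 4 or 6, the level and the batch cannot be told apart there.

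**Figure D3:**
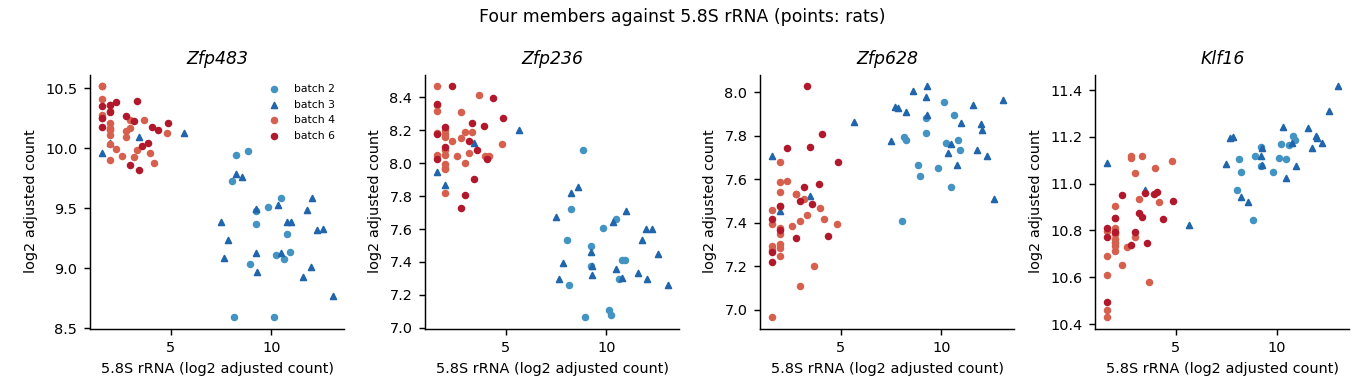
Zfp483, Zfp236, Zfp628 and Klf16 (log2 adjusted count) against 5.8S ribosomal RNA (log2 adjusted count); points are rats, coloured by batch, with batch 3 as triangles and the rat of batch 5 left out. The 4 triangles under 6 on the horizontal axis lie among batches 4 and 6 for Zfp483 and Zfp236.

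No member passed the comparison of the sexes. With batch in the model, 0 of the 63 members passed at an adjusted p under 0.05 (limma), where 0.365% of all genes did, and 7 had an unadjusted p under 0.05 (11.1%, against 7.82% of all genes). The differences, male minus female, ran from -0.37 for *Zfp296* to 0.27 for *Zfp618*, with a median of 0.017 and a median SE of 0.0486. The smallest p belonged to *Zbtb7c*, a relative of the factor LRF. Its lowest, median and highest values were 4.91, 5.78 and 6.34 in males and 5.46, 6.02 and 6.54 in females, so the sexes overlapped over most of their range. The difference was -0.22 with a 95% interval of -0.36 to -0.08 (unadjusted p = 0.00232, adjusted p = 0.202, limma), and its sign was the same in batches 2, 3, 4 and 6 (-0.35, -0.26, -0.21 and -0.11).

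The next members by p were *Zkscan2* (0.15, 95% interval 0.03 to 0.27), *Zfp518a* (0.17, 0.03 to 0.31), *Zfp444* (-0.04, -0.08 to -0.01) and *Zfp618* (0.27, 0.04 to 0.50), a factor described as binding the methylcytosine reader Uhrf2. Their adjusted p lay between 0.467 and 0.538 (limma). *Zfp444* and *Zfp618* changed sign in batch 2, at 0.02 and -0.07, while *Zkscan2* and *Zfp518a* kept theirs in the 4 batches. The interaction of sex and batch was significant for 0 members and 0% of all genes, and 1 member had an unadjusted p under 0.05 (1.59%, against 2.38% of all genes).

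Rats of the same sex and batch differed in these genes by a median SD of 0.208 (log2, quartiles 0.172 to 0.283), and the median over all genes was 0.227. Among genes with a mean of at least 5, the 59 members had a median of 0.207 and all 13025 genes 0.183. The median level of these members was 7.91 (log2) and that of these genes 8.89, and the SD was larger at lower levels. In the bins of mean log2 that start at 7 and 8, all genes had median SDs of 0.222 and 0.182. Every member has a listed eQTL, so the spread was not tested against other genes. *Zfp444* (residual SD 0.0752), *Zfp512* (0.0854) and *Zfp207* (0.0996) varied least. Over all 80 rats, *Zfp444* ran from 10.16 to 10.63 with a median of 10.44, and *Zfp512* from 9.98 to 10.36 with a median of 10.20. *Zfp618* (0.497), *Zfp54* (0.447), *Zfp473* (0.418) and *Zfp773-ps1* (0.413) varied more, at median adjusted counts of 21, 42.5, 20 and 25, where counting error is large.

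*Zfp296*, a gene known from pluripotent cells, varied most, with a residual SD of 1.30. It was at 0 in 9 rats and reached 5.04 in the highest, with a median adjusted count of 6.5, so single reads move its log2 value. Rats at 0 occurred in each of batches 2, 3, 4 and 6. No other member was at 0 in any rat.

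**Figure D4:**
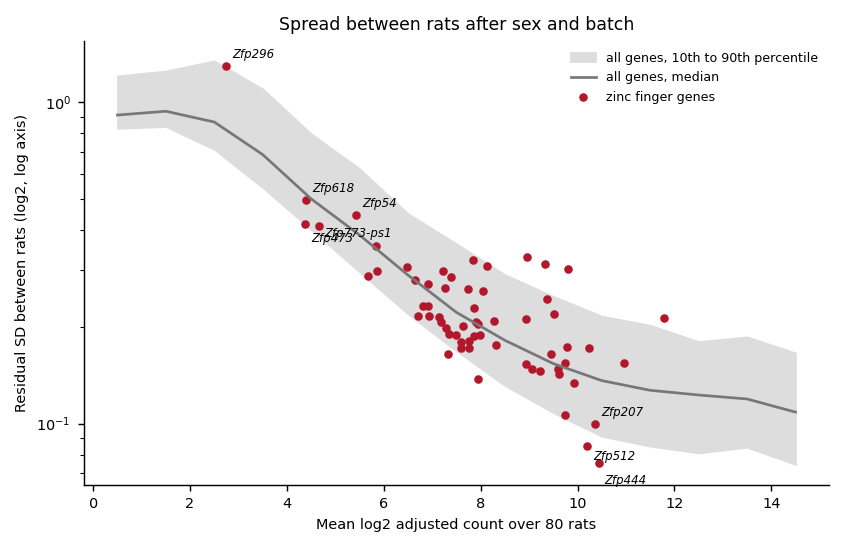
Residual SD between rats after sex and batch (log2, log axis) against the mean log2 adjusted count; red points are the 63 members, the line the median and the band the 10th to 90th percentile of all genes in bins of mean level. Zfp296 lies at 1.30 on the left and Zfp444 at 0.0752 at the bottom.

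No member split into separate high and low groups of rats. Values with sex removed, but not batch, were fitted with a mixture of a pair of normal distributions. A gene was called when the mixture lowered the Bayesian information criterion (BIC) by over 10. Its means also had to be at least 1 log2 unit and over 4 component SDs apart, with at least 10% of rats in the smaller group. Of all genes, 2.45% were called. With batch removed as well, 0 members were. *Zfp483* came nearest by BIC, with a drop of 17.4, but its components were 0.909 apart. Its differences between batches, given above, are part of that distance. *Zfp296* had components 2.76 apart, each with an SD of 0.765, and a BIC drop of 13.2. With a limit of 3 component SDs, *Zfp296* was called.

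Neighbouring members were compared next, since KRAB genes lie in clusters. By RefSeq's order, 34 pairs of members start within 1 Mb of each other, and each pair was correlated over the 80 rats after sex and batch were removed. In 11 pairs the correlation passed (permutation test, Benjamini-Hochberg adjusted over the 34), 8 of them positive and 3 negative. This is 32.4% of the neighbour pairs, and of all 1953 pairs of members 26.9% passed when adjusted over the 1953. The difference between these shares was not tested. The median size of r was 0.183 in the 34 pairs and 0.155 in 1536 pairs on different chromosomes.

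The strongest neighbours were *Zfp296* (ENSRNOG00000049605), *Zfp180* (ENSRNOG00000029336) and *Zfp61* (ENSRNOG00000019416), whose promoters are shown above. *Zfp180* and *Zfp61* gave Pearson's r = 0.609 and Spearman's rho = 0.592, each with p = 1e-05, the smallest that the permutations can give (adjusted p = 0.000113 and 0.00017). Without the 2 rats farthest from the median of *Zfp180*, r was 0.599. *Zfp296* gave r = 0.546 and rho = 0.481 with *Zfp61* (permutation p = 1e-05 and 2e-05, adjusted p = 0.000113 and 0.000227; r = 0.479 without 2 rats) and r = 0.518 and rho = 0.524 with *Zfp180* (permutation p = 1e-05 for both, adjusted p = 0.000113 and 0.00017; r = 0.483). Within batches 2, 3, 4 and 6, r of *Zfp180* and *Zfp61* was 0.747, 0.754, 0.492 and 0.440, and that of *Zfp296* and *Zfp180* was 0.747, 0.532, 0.416 and 0.436. With the 5.8S level also removed, the 3 correlations were 0.613, 0.555 and 0.55. Neither *Zfp180* nor *Zfp61* passed over batches, with adjusted p of 0.0644 and 0.0937 (limma).

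*Zfp111*, which lies between *Zfp180* and *Zfp61*, did not pass with either: r was -0.235 with *Zfp180* and -0.047 with *Zfp61* (permutation p = 0.0364 and 0.677, adjusted p = 0.0952 and 0.723; Spearman's rho for the first was -0.154, permutation p = 0.172). The fourth pair by p was *Zfp84* and *Zfp566*, with r = 0.427 and rho = 0.450 (permutation p = 9e-05 and 6e-05, adjusted p = 0.000748 and 0.000397; r = 0.393 without 2 rats). Within batches this pair had r of 0.0057, 0.533, 0.509 and 0.535, near 0 in the 14 rats of batch 2. The negative pairs were *Zfp637* and *Zfp9* (r = -0.386, rho = -0.430, permutation p = 0.00037 and 7e-05, r = -0.431 without 2 rats), *Zfp28* and *Zfp444* (r = -0.361, rho = -0.340, permutation p = 0.00096 and 0.002, r = -0.309) and *Zfp667* and *Zfp787* (r = -0.353, rho = -0.375, permutation p = 0.00135 and 0.00076, r = -0.353). Their adjusted p ran from 0.0018 to 0.00479 for r and from 0.000397 to 0.00756 for rho. Of these, *Zfp28* and *Zfp444* were at r = 0.0912 within batch 2.

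The highest and the lowest correlation of all joined genes on different chromosomes. Over the 1953 pairs of members, r ran from -0.675 to 0.900, and 525 pairs passed (322 positive, 203 negative; permutation test adjusted over 1953). The share that passes among pairs of other genes was not computed. Whether the members vary together more than other genes is therefore not known. The pairs named from here on were chosen after their values were seen. *Zfp483* (chromosome 5) and *Zfp831* (chromosome 3) had r = 0.900 and rho = 0.864 (permutation p = 1e-05 for both, adjusted p = 0.00019 and 0.000217; r = 0.885 without 2 rats), with 0.948, 0.938, 0.748 and 0.856 within batches 2, 3, 4 and 6. These 2 genes, *Zfp236*, *Zfp462* and *Zfp597* were joined by r of 0.644 to 0.900 in all 10 pairs, and all 5 were higher in batches 4 and 6. Not every pair held within batch 4. There r was 0.109 for *Zfp462* and *Zfp597*, 0.302 for *Zfp483* and *Zfp597* and 0.421 for *Zfp597* and *Zfp831*. Within batch 3 the same pairs had r of 0.773, 0.886 and 0.852. Within this set, *Zfp462* and *Zfp483* (r = 0.797) both lie on chromosome 5. A second set, *Zfp68*, *Zfp955a*, *Zfp280d* and *Zfp354c*, was joined by r of 0.618 to 0.841 in its 6 pairs. *Zfp68* (chromosome 12) and *Zfp955a* (chromosome 7) led it, with r = 0.841 and rho = 0.857 (permutation p = 1e-05 for both; r = 0.827 without 2 rats) and 0.840 to 0.874 within batches. The lowest r was that of *Klf16* and *Zfp280d*, -0.675 (rho = -0.680, permutation p = 1e-05 for both; r = -0.689 without 2 rats), at -0.516 to -0.813 within batches.

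**Figure D5:**
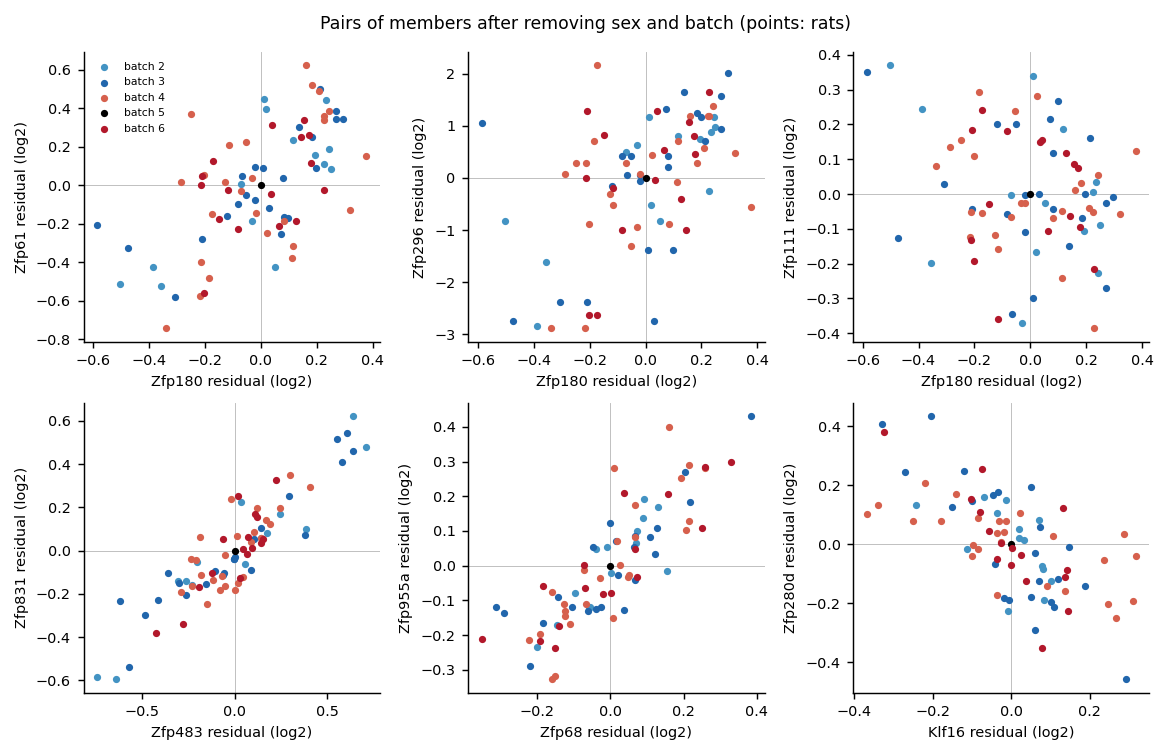
Residuals of pairs of members after sex and batch (log2 adjusted count on both axes; points are rats, coloured by batch). Upper row, the chromosome 1 neighbours Zfp180 with Zfp61 (r = 0.609), Zfp296 (r = 0.518) and Zfp111 (r = -0.235); lower row, pairs on different chromosomes, Zfp483 with Zfp831 (r = 0.900), Zfp68 with Zfp955a (r = 0.841) and Klf16 with Zfp280d (r = -0.675).

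*Zfp483* and *Zfp68*, which lead these sets, and *Klf16* also moved with 5.8S ribosomal RNA after sex and batch were removed. *Zfp180*, of the chromosome 1 neighbours, did not pass. These correlations were pooled over the 80 rats and not computed within single batches. Batch 3 varied most in the 5.8S level, with an SD of 3.27 against 1.01, 0.90 and 1.05 in batches 2, 4 and 6. In 40 relations between 4 members and 10 measures of the libraries or marker genes, 9 passed by Pearson's r (permutation test, adjusted over 40). After sex and batch, r with the 5.8S level was -0.551 for *Zfp483* (rho = -0.481), -0.484 for *Zfp68* (rho = -0.482) and 0.530 for *Klf16* (rho = 0.628), with an adjusted p of 0.000133 for each r and 0.0004 for each rho. Without 2 rats these were -0.480, -0.471 and 0.543. For *Zfp180* it was -0.073 (rho = -0.030, permutation p = 0.525 and 0.792). *Klf16* also rose with *Olig2* (r = 0.393, rho = 0.381, permutation p = 0.00024 and 0.00047, adjusted p = 0.0024 and 0.0047; 0.386 without 2 rats), and *Zfp483* went the other way (r = -0.347, rho = -0.316, permutation p = 0.00154 and 0.00453, adjusted p = 0.0119 and 0.0302; -0.294). The other 4 that passed were *Zfp483* with *Hbb* (r = -0.326, rho = -0.325, permutation p = 0.00334 and 0.00347), *Zfp68* with *Aldh1l1* (r = -0.307, rho = -0.277, permutation p = 0.00547 and 0.0128), *Klf16* with *Aldh1l1* (r = 0.299, rho = 0.282, permutation p = 0.00706 and 0.0118) and *Klf16* with *Dcn* (r = -0.346, rho = -0.296, permutation p = 0.00178 and 0.00774), with adjusted p for r of 0.0191, 0.0274, 0.0314 and 0.0119; without 2 rats r was -0.293, -0.302, 0.310 and -0.321. For rho the adjusted p of these 4 was 0.0278, 0.0569, 0.0569 and 0.0442 (permutation test), so both relations with *Aldh1l1* missed the threshold by rank. The part of these cell types and of ribosomal RNA in the correlations was not tested further than by the removal that follows. Recovered depth gave r between -0.005 and 0.072 with the 4 genes. With the 5.8S level removed as well, 340 of the 1953 pairs passed, and r was 0.859 for *Zfp483* and *Zfp831*, 0.806 for *Zfp68* and *Zfp955a* and -0.520 for *Klf16* and *Zfp280d*.

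Of 41 partners and cofactors of zinc finger repressors listed, 9 have a name in the shortened eQTL lists. Over batches 8 of them passed (59.4% of all genes did). In batch 4 against batch 3, 4 were higher and 1 lower (25.7% and 26% of all genes), and in batch 6 against batch 2, 4 were higher and 2 lower (20.6% and 17.7%). By sex, 0 of the 9 passed (0.365% of all genes). *Atf7ip*, the partner of *Setdb1*, had means of 9.57, 9.69, 9.96 and 9.95 in batches 2, 3, 4 and 6 and was higher by 0.27 ± 0.047 and 0.38 ± 0.060. *Trim33*, a relative of *Trim28*, was at 8.61, 8.63, 9.03 and 9.02 and was higher by 0.40 ± 0.059 and 0.42 ± 0.076. *Cbx1*, a heterochromatin protein, and *Morc3* were higher in batch 4 by 0.18 ± 0.046 and 0.24 ± 0.044, and *Ehmt1*, a histone methyltransferase, and *Sin3b* in batch 6 by 0.13 ± 0.046 and 0.26 ± 0.054. *Kdm1a*, a histone demethylase, was lower by 0.07 ± 0.021 and 0.08 ± 0.028, and *Rbbp4*, a histone-binding subunit of several corepressors, was lower in batch 6 by 0.15 ± 0.062. *Trim28* and *Setdb1* are not named in the part of the lists used here and are not analysed.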

How the data were processed

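The authors trimmed reads with cutadapt, used RSEM on the Ensembl rat transcriptome (Rnor_6.0 per the labels) to estimate a count for each gene, adjusted them by the upper quartile in DESeq2, and deposited log2 values after adding a pseudocount of 1; tool versions are not given in the sources used here. Adjusted counts are not raw counts, so no count test was run. All 17250 genes were fitted with limma 3.58.1 (R 4.3.3, variance trend) on sex and rat batch, each rat being a replicate, and p-values were Benjamini-Hochberg adjusted over all genes. Of 200 simulated changed genes, 161 were recovered for sex and 150 for batch 4 minus batch 3 (4 and 9 false calls). Depth was recovered from steps between whole counts (79 of 80 libraries clear). It limits low members most. Correlations used residuals, 100000 permutations and two-sided tests in Python 3.11.15 (numpy 2.4.6, scipy 1.17.1). Intervals use the SE and 74 residual degrees of freedom.

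The members and lists were chosen with earlier results of these data known. Members named in the text are the 8 with the smallest p over batches, the 5 with the smallest p for sex, the 5 with the largest and 3 with the smallest residual SD, all Zbtb, Zkscan and Klf members, the 4 leading neighbour pairs and any at 0. Further members were named after their values were seen, for their known function, their place in a called list or a leading correlation. A count of zinc fingers per protein was planned but not made, as no protein sequences were used here. RefSeq (GRCr8) placed 61 members by symbol. Alternatives covered the pseudocount, a filter on low means, rank transformation, centring, depth, robust variance, sex and batch terms, single sexes and the 5.8S level.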

Additional observations from a re-analysis of the deposited data

How the results depend on the processing

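No result changed direction. Where the main count of called members was above 0, it stayed within 1.5 times in 52 of 60 alternatives, and where it was 0 (sex, sex by batch, separate groups) in 16 of 17. The median SD stayed within its spread in all 3 alternatives. In males alone, 6 members were lower in batch 4 than in batch 3 (main 10; 13.3% of all genes). In females alone, 4 were higher and 1 lower in batch 6 than in batch 2 (main 23 and 6; 3.23% and 1.61% of all genes), where batch 2 has 3 females. With 5.8S ribosomal RNA as a covariate, 13 passed over batches (main 45; 15.3%), 0 were higher and 0 lower in batch 4 than in batch 3 (main 30 and 10), and 3 were higher and 2 lower in batch 6 than in batch 2. A limit of 3 component SDs called 1 member for separate groups (main 0). On residuals for sex alone 17 neighbour pairs passed (main 11), and with the 5.8S level removed 10 did, as did 340 of all pairs (main 525). Centring libraries on their medians gave 28 higher and 13 lower in batch 4 (23.8% and 28.1% of all genes) and 20 higher and 8 lower in batch 6 (15.8% and 23.9%). Calls of single named genes between batches were kept in 213 of 240 alternatives and lost in 27, of which 19 were with the 5.8S covariate; some lost calls kept their size, as for *Zfp40* between batches 6 and 2 in females alone (0.60, as in all rats) and *Zbtb34* between batches 4 and 3 in males alone (0.17 against 0.15). The cause was not tested. The 5 sex differences named had no call to lose. No paired analysis was possible because replicate numbers in the labels do not link rats between sexes or batches. Low counts limit *Zfp296*, *Zfp618*, *Zfp473* and *Zfp773-ps1*.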
